A study of Mus musculus with 4 samples.

Results

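Klhl15, Tfap2b, Cep295 and Megf11 are protein-coding genes that are not chiefly known from muscle. They were chosen by their RPKM values, for much lower ribosome-protected signal in eIF5A-KO than in WT myoblasts, and they are 4 of the 55573 genes and 4 of the 21900 protein-coding genes in the table. Because the KO and WT values themselves chose these genes, their difference between the groups is given as a description. Where a fit across all genes called them, that call follows from the choice and supports nothing. All 4 passed the filter on low values.

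Ribosome profiling was performed on primary mouse myoblasts, the proliferating precursors of muscle fibres, collected on day 2 of culture in medium with FGF. There were 2 libraries of WT cells and 2 of cells in which floxed eIF5A had been deleted by a tamoxifen-inducible Cre recombinase under the Pax7 locus (eIF5A-KO). That driver is active in muscle stem cells, so cells of other types in a culture would keep the gene. The cells came from 3-week-old mice, WT being littermates, the floxed line was made in C57BL/6j, and both groups received cycloheximide before lysis. The labels name the assay Polysome-Seq in the titles and describe RNase I digestion of ribosome-bound RNA in the protocol. The study describes its WT controls both as Cre carriers with intact eIF5A and as floxed mice without Cre. The number of mice behind each library was not given in the sources used here, so the spread between libraries of a group may be technical. Signal is in RPKM, reads per kilobase of gene divided by a library size that the authors set. Whole reads could be recovered from these values.

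eIF5A binds the ribosome and helps it to form peptide bonds that are slow to form, those between consecutive prolines being the best known. It carries hypusine, an amino acid made from spermidine. Signal on a gene in ribosome profiling depends both on the amount of its mRNA and on how many ribosomes sit on it, and the RNA amount was not measured in the files used here. In a bulk culture, fewer cells of a type and less signal per cell cannot be told apart either.

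The libraries held 642429 to 704006 reads on genes. These totals were 108% and 136% of the authors' library size in WT1 and WT2 but 77.6% and 80.5% of it in KO1 and KO2. Scaling the libraries to the same number of reads raised the median log2 change of all tested genes from 0.000259 to 0.50 and moved the 4 genes with it. Eif5a itself, the targeted gene, had 50 and 73 reads in WT and 130 and 114 reads in KO, which is not lower in the KO libraries. Its levels were 34.9 and 65.2 RPKM in WT and 60.3 and 59.4 RPKM in KO, with a log2 change of 0.32 ± 0.48 (SE; adjusted p = 0.839, limma). The total over a gene cannot show whether its floxed exons are missing, so the KO labels were not checked by these reads, and KO and WT here mean the libraries labelled KO and WT, also wherever a direction is given. Among the markers of myoblasts, Myod1, Myf5, Pax7 and Des carried signal in WT. All 7 tested markers had a log2 change below 0 in KO, but that of Itga7 was -0.02, with means of 17.4 RPKM in WT and 19.3 RPKM in KO. In limma 3 of the 7 (Myf5, Pax7 and Des) had an unadjusted p under 0.05, and 0 an adjusted one. Over all tested genes 4.46% were lower at that unadjusted threshold. Of the 6 myoblast markers that limma-voom tested, Myf5 not among them, 0 passed its adjusted threshold. Above 0 in limma were 5 of 7 fibroblast, 5 of 5 endothelial, 2 of 3 immune and 5 of 8 Schwann and neural crest markers. Of these, Kdr and Adgre1 had an unadjusted p under 0.05. The summed level of the 8 myoblast markers was 238 and 182 RPKM in WT and 98.0 and 117 RPKM in KO. Of this, Myod1 held 139.9, 117.5, 48.6 and 79.8 RPKM in WT1, WT2, KO1 and KO2. The part of this difference in the values below was not tested.

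Klhl15 codes for an adaptor of the CUL3 ubiquitin ligase, which brings substrates to the enzyme through its Kelch repeats. Its gene lies at chrX:94234599-94277724 on the plus strand (GRCm38). The WT libraries held 65 and 78 of its reads and the KO libraries 19 and 21, corresponding to 11.1, 17.0, 2.15 and 2.67 RPKM. Both KO values lay below both WT values, WT2 being 1.54-fold above WT1 and KO2 1.24-fold above KO1. The mean level was 14.0 ± 4.19 RPKM in WT (SD, n = 2) against 2.41 ± 0.367 RPKM in KO (SD, n = 2), so that KO held 17.2% of the WT level. The closest pair of libraries from the different groups differed 4.15-fold and the farthest 7.90-fold.

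Tfap2b codes for a transcription factor of the AP-2 family, known for its part in neural crest, kidney and limb development. The gene lies at chr1:19208914-19238576 on the plus strand. It had 40 and 113 reads in WT and 12 and 10 reads in KO, corresponding to 10.5, 37.8, 2.09 and 1.95 RPKM. The KO libraries were alike and low, while WT library 2 stood 3.62-fold above WT library 1. The mean was 24.2 ± 19.4 RPKM in WT (SD, n = 2) against 2.02 ± 0.0948 RPKM in KO (SD, n = 2), which is 8.36% of WT. Ratios between single WT and KO libraries ran from 5.02-fold to 19.4-fold.

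Cep295 codes for a centriolar protein that is needed for a new centriole to mature into a centrosome. The gene lies at chr9:15316915-15357788 on the minus strand. It had 86 and 90 reads in WT and 40 and 30 reads in KO, corresponding to 8.79, 11.8, 2.72 and 2.29 RPKM. It had the most reads of the 4 genes, 246 over all libraries, and the smallest difference. The mean was 10.3 ± 2.11 RPKM in WT (SD, n = 2) against 2.50 ± 0.303 RPKM in KO (SD, n = 2), which is 24.3% of WT, and the ratios of single libraries lay between 3.24-fold and 5.14-fold.

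Megf11 codes for a transmembrane protein with many EGF-like repeats, known for the even spacing of neurons in the retina. The gene lies at chr9:64385626-64709205 on the plus strand. It had 31 and 98 reads in WT and 4 and 17 reads in KO, corresponding to 4.60, 18.6, 0.394 and 1.88 RPKM. The groups did not overlap, but they came closest here, since WT library 1 was 2.44-fold above KO library 2. The mean was 11.6 ± 9.90 RPKM in WT (SD, n = 2) against 1.14 ± 1.05 RPKM in KO (SD, n = 2), which is 9.81% of WT. The 4 reads in KO library 1 gave a 95% Poisson interval of 0.107 to 1.01 RPKM, and the 17 reads in KO library 2 one of 1.10 to 3.01 RPKM. Such intervals cover counting error only.

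**Figure D1:**
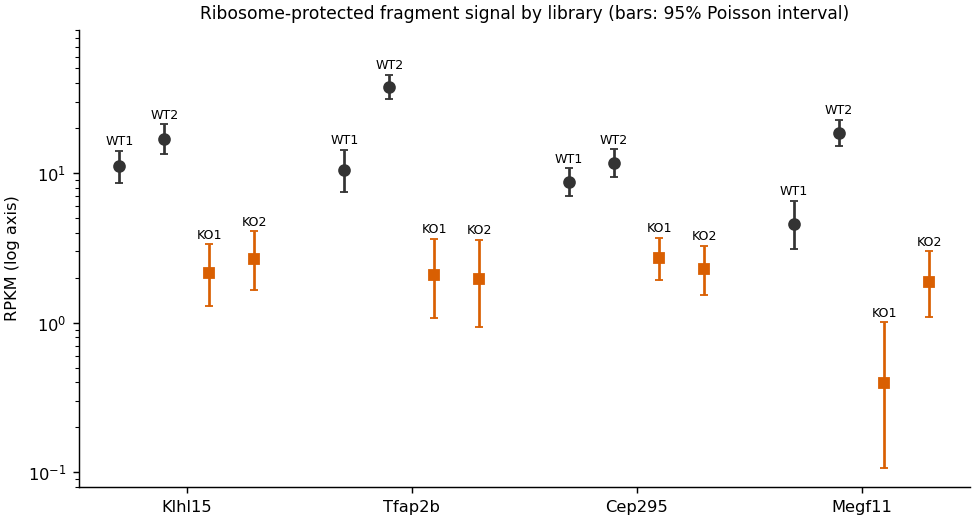
RPKM of the 4 genes in each library on a log axis, with WT libraries as dark circles, KO libraries as orange squares and 95% Poisson intervals as bars. Every KO point lies below every WT point of its gene, and WT2 lies well above WT1 for Tfap2b (37.8 against 10.5 RPKM) and Megf11 (18.6 against 4.60 RPKM).

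The RPKM values are per length and can be ordered across the genes. In WT the order of the means was Tfap2b, Klhl15, Megf11 and Cep295, but the WT values of each gene overlapped the range of its neighbours in this order, so that neighbours did not differ beyond their spread. In KO library 1 Cep295 was the highest with 2.72 RPKM and in KO library 2 Klhl15 with 2.67 RPKM, and Megf11 was the lowest in both KO libraries. Among protein-coding genes with at least 20 reads, the WT means lay at the 72.2nd percentile for Cep295, the 75.8th for Megf11, the 81.1st for Klhl15 and the 90.2nd for Tfap2b. The KO means lay at the 23.1st, 5.59th, 21.8th and 16.8th percentiles in the same order. In single WT libraries the 4 genes lay above the 50th percentile with 1 exception, Megf11 in WT1, which was at the 43.7th percentile beside the 85.3rd in WT2.

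On a scale of log2(RPKM + 1), where the added 1 shrinks the changes of genes with low RPKM, the difference in KO against WT was -2.81 ± 0.62 (SE) for Tfap2b, -2.39 ± 0.71 for Megf11, -2.12 ± 0.39 for Klhl15 and -1.68 ± 0.37 for Cep295. On recovered reads, with limma-voom, the log2 changes were -3.25 ± 0.61, -3.38 ± 0.73, -2.50 ± 0.46 and -2.02 ± 0.43 in the same order. Single WT libraries decided much of the size for Tfap2b and Megf11: without WT2 their log2(RPKM + 1) changes were -1.93 and -1.48, and without WT1 they were -3.69 and -3.29. The limma-voom fit called 39 of 9179 genes lower in KO (0.425%) and 0 genes higher, with 611 and 319 genes at an unadjusted p under 0.05. The 4 genes were among the 6 protein-coding genes called, as their choice by the same values made likely, and nothing is read from it. In limma on log2(RPKM + 1), 11 of 11363 genes were called lower (0.0968%) and 1 higher (0.0088%), and the 4 genes were not among them. Groups that did not overlap together with a mean at least 4-fold lower in KO were found for 98 of 8730 protein-coding genes with at least 20 reads (1.12%), the 4 genes included, and 86 genes showed the same in the other direction.

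The other protein-coding genes inside the limma-voom threshold were Smad6, ahead of all 4 in the order by p, and Chrna1, behind all 4. Smad6, an inhibitor of BMP signalling, had 264 and 530 reads in WT and 99 and 44 reads in KO. Chrna1, which codes for part of the acetylcholine receptor at the nerve-muscle synapse, had 46, 33, 9 and 16 reads in WT1, WT2, KO1 and KO2. The first just outside was Fgfr4, a receptor of fibroblast growth factors, with 66, 16, 6 and 9 reads. It was followed by Ucp2, a mitochondrial carrier, with 82, 56, 15 and 46 reads and by Fxyd6, a regulator of the sodium pump, with 46, 21, 3 and 20 reads. Smad6 and Megf11 lie 364 kb apart on chromosome 9, with 20 genes of the table between them.

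**Figure D2:**
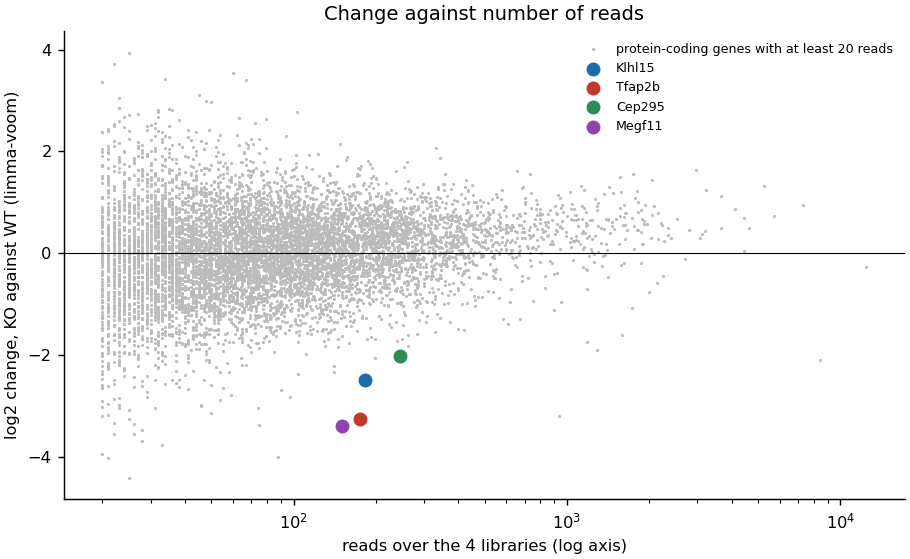
Log2 change in KO against WT from limma-voom against the total of reads over the 4 libraries (log axis), with a grey point for each protein-coding gene with at least 20 reads and the 4 genes in colour. The 4 genes, with 150 to 246 reads, lie at the lower edge, and the spread of grey points widens toward 20 reads.

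Read number sets how far such changes can be trusted, and it was compared with that of other genes. The 4 genes had 150 to 246 reads over the libraries, with 222 and 379 reads on all 4 together in WT and 75 and 78 in KO. Of the 3357 protein-coding genes with at least 100 reads, 10 had a limma-voom log2 change of -2 or lower, and the 4 genes were among them by choice. The 95% Poisson intervals of the libraries, which leave out the spread between replicates, ended nearest to each other for Megf11, where the lowest WT interval began at 3.12 RPKM and the highest KO interval ended at 3.01 RPKM.

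The WT libraries differed from each other in these genes by unequal amounts. WT2 over WT1 was 1.34 for Cep295 and 1.54 for Klhl15, at the 67.7th and 73.7th percentiles of protein-coding genes with at least 20 reads. It was 3.62 for Tfap2b and 4.04 for Megf11, at the 95.5th and 96.6th percentiles. The median over these coding genes was 0.981, with quartiles at 0.640 and 1.56. Over the 119 microRNA genes with at least 20 reads the median of WT2 over WT1 was 3.14, and their median log2 change in KO against WT was -2.14. The choice of the 4 genes used the WT values too, and a high WT2 raises the WT mean, so neither their group difference nor their ratio between WT libraries is independent of the choice, and both are given as descriptions. The 74 snoRNA genes with at least 20 reads went the other way between the WT libraries, with a median WT2 over WT1 of 0.397, and had a median log2 change of -1.36. A ratio of 3 or more was found for 6.75% of the coding genes and for 52.9% of the microRNA genes. Of the genes with such a ratio, 9 of 589 coding genes and 35 of 63 microRNA genes also had a log2 change of -2 or lower. The part of small RNA fragments in the signal of Tfap2b and Megf11 was not tested, since gene totals do not show where in a gene the reads lie.

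**Figure D3:**
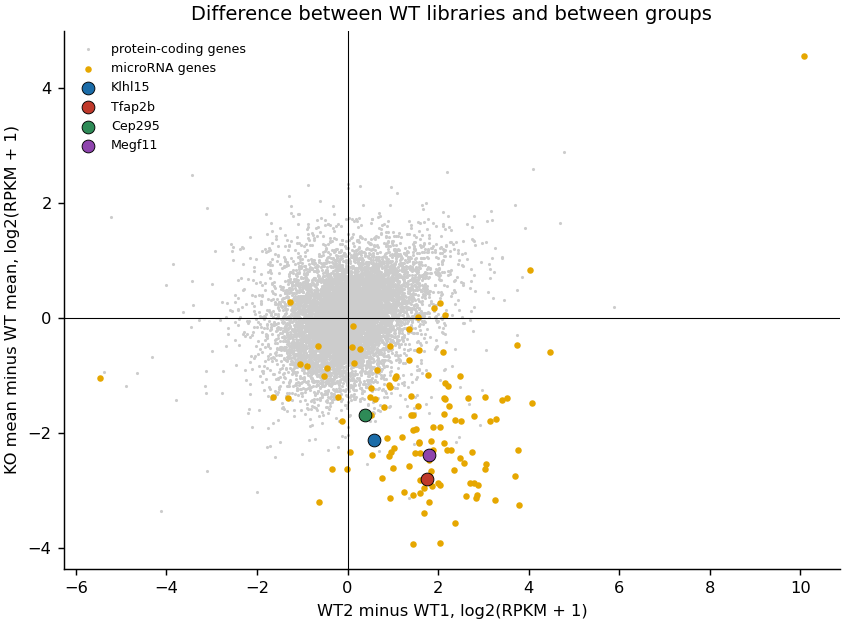
Difference between the WT libraries (WT2 minus WT1) on the horizontal axis and between the groups (KO mean minus WT mean) on the vertical axis, both in log2(RPKM + 1), for protein-coding genes (grey), microRNA genes (yellow) and the 4 genes. Tfap2b and Megf11 lie to the lower right among microRNA genes, with WT2 over WT1 of 3.62 and 4.04, and Cep295 and Klhl15 lie further left; the vertical place of the 4 genes follows from their choice, which also favoured a high WT2.

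Small RNA genes inside the loci were counted, because short non-coding RNAs can be recovered along with ribosome-protected fragments. No other gene of the table overlaps Tfap2b or Megf11. Klhl15 holds 1 small RNA gene and Cep295 holds 2, and 13.2% of the 9877 tested coding genes hold at least 1. The nearest small RNA gene with any read outside the span lies 4034 kb from Tfap2b and 89.6 kb from Megf11.

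In Klhl15, the microRNA gene Mir7673 (chrX:94274574-94274637, plus strand, the same strand) lies within the last exon, behind the end of the coding sequence at position 94273462, and 2.58% of tested coding genes have a small RNA gene on the same strand that touches an exon. Its mature forms from RefSeq are shown with the seed, bases 2 to 8, in capitals, since reads of these sequences would fall into an exon of Klhl15.
mmu-miR-7673-5p: uUUGACUGagagguaaggaaug
mmu-miR-7673-3p: uUCCUUACcucaccgucaaagga
Mir7673 was listed at 0 reads in all 4 libraries. How reads that fit both genes were counted was not given in the sources used here.

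In Cep295, the snoRNA genes Gm24339 (chr9:15326464-15326539) and Scarna9 (chr9:15326264-15326333) lie in an intron on the same minus strand. They are shown whole because they are the only small RNA genes inside any of the 4 loci with reads.
Gm24339: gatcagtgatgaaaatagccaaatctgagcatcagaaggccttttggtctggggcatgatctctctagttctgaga
Scarna9: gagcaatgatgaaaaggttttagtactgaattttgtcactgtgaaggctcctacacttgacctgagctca
Gm24339 had 5 reads in each WT library and 0 and 1 in KO, and Scarna9 had 0, 0, 0 and 1. Neither overlaps an exon of Cep295, and their reads together were few beside the 246 reads of Cep295. On the opposite strand, Taf1d, which codes for a factor of RNA polymerase I transcription, overlaps the last exon of Cep295 by its own end and carried 13 and 8 reads in the WT libraries and 29 and 20 in KO, opposite in direction to Cep295. The antisense gene Gm16568 and the pseudogenes Gm48141 and Gm48142 overlap Cep295 exons and were listed at 0 in all libraries. The strand used in counting was not stated, so reads of overlapping genes on opposite strands may not be told apart.

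**Figure D4:**
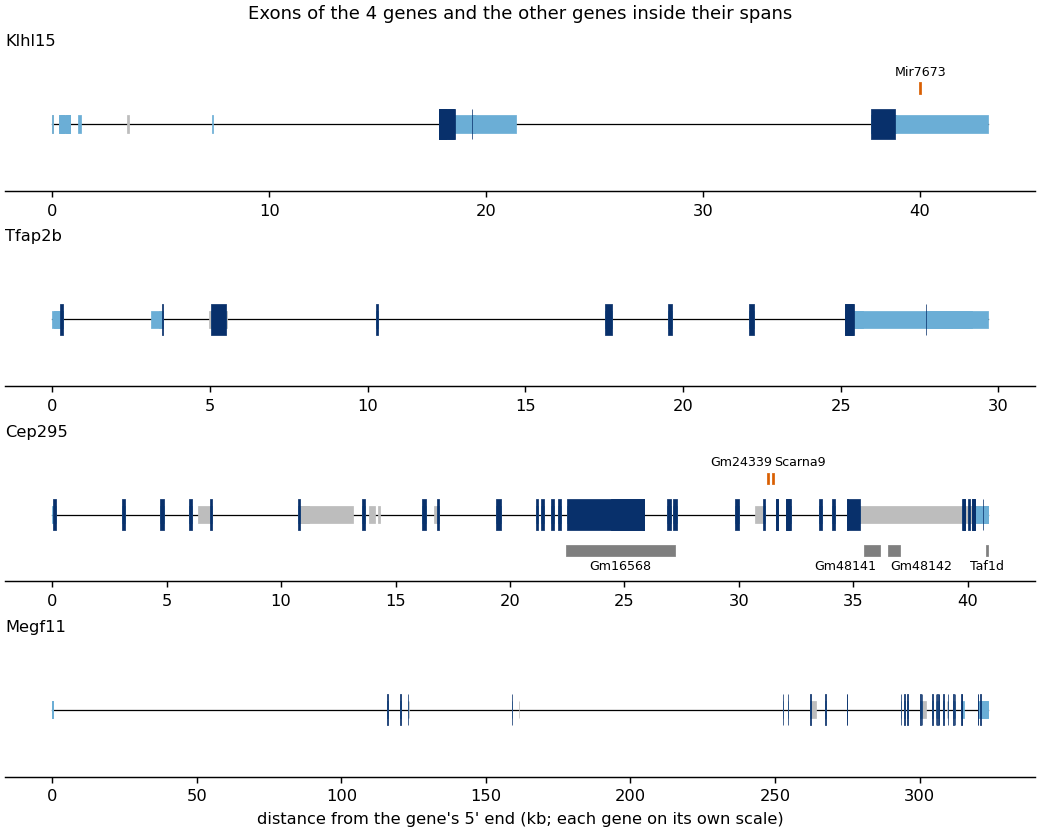
Map of the 4 genes by distance from the 5′ end in kb, each on its own scale, with coding sequence in dark blue, other exons of coding transcripts in light blue and exons of noncoding transcripts only in grey. Small RNA genes are orange, other overlapping genes are dark grey, and genes above the line lie on the same strand; 2 small RNA genes lie in an intron of Cep295, 1 lies in the last exon of Klhl15, and Tfap2b and Megf11 hold none.

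Stretches of 25 bases that also occur in another annotated transcript made up 20.7% of its exonic sequence, at the 89.4th percentile of tested coding genes, against 0.941% for Klhl15, 0.984% for Megf11 and 0.699% for Tfap2b and a median of 2.09%. Of the 3391 such stretches in Cep295, 1702 occur in Gm16568, 688 in Gm48141 and 521 in Gm48142, which overlap Cep295 on the opposite strand, so that most of this share is the same place annotated on both strands. Of the exon bases of Cep295, 51.0% belong to noncoding transcripts alone, 7 of its 14 transcripts being classed as retained introns. The share was 34.2% for Megf11, 1.66% for Tfap2b and 1.17% for Klhl15.

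One retained-intron transcript of Cep295 also holds a stretch like mitochondrial tRNA. Of the 43 stretches of 25 bases in mt-Ty, the mitochondrial tRNA for tyrosine, 10 occur in it, and of the 51 in mt-Tl1, a mitochondrial tRNA for leucine, 2 do. Among 9863 tested nuclear coding genes, 2 (0.0203%) share such a stretch with a mitochondrial gene, the other being Gm20594, which was singled out after its values were seen and had 85 and 128 reads in the WT libraries and 65 and 51 in KO. The longest shared run, at chr9:15321577-15321610, on the minus strand and in the same orientation as mt-Ty, is printed because a read from either place would match both.
Cep295 and mt-Ty: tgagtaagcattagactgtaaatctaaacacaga
Both mt-Ty and mt-Tl1 were listed at 0 in all 4 libraries, as were 8 of the 22 mitochondrial tRNA genes in all. The reads on mitochondrial tRNA genes summed to 3920 and 3057 in WT and 1483 and 3822 in KO. The part of such reads in the signal of Cep295 was not tested.

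Sequence features that the choice of genes did not use were compared next. A run of 3 or more prolines in the encoded protein was found in Cep295 and Tfap2b and not in Klhl15 and Megf11, whose longest runs were 1 and 2 prolines, and 25.8% of 9866 coding genes have one. The coding sequence around each run is shown with the proline codons in capitals, as the kind of site at which eIF5A is known to act.
Cep295, residues 215 to 217: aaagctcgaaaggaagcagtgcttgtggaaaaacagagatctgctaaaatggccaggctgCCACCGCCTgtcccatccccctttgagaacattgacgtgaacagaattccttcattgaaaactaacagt
Tfap2b, residues 71 to 73: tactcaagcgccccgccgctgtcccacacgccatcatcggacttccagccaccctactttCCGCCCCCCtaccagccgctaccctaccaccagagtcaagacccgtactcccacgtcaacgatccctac
Each of these proteins has 1 such run, in 2460 residues for Cep295 and 459 for Tfap2b. The 2542 coding genes with a run had a median log2 change of -0.13 in KO against WT and the 7324 without one a median of 0.12. These medians were not adjusted for coding GC, with which the log2 change also moved, as given below. The cause of the gap was not tested. Klhl15 and Megf11, with no such run, had changes of -2.12 and -2.39, beside -1.68 and -2.81 for Cep295 and Tfap2b. All of these genes were chosen for low KO values, with or without a run, so nothing is read from their changes. The part of the run in them was not tested.

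The base composition of the coding sequences put the genes at different ends. GC content was 44.0% in Klhl15 and 44.3% in Cep295, at the 7.99th and 8.70th percentiles, and 56.1% in Tfap2b and 58.5% in Megf11, at the 67.1st and 81.0th percentiles, around a median of 53.2%. In these libraries the log2 change of coding genes moved with GC. With the coding genes split by GC into 10 bins of equal size, the bin with the lowest GC, which holds Klhl15 and Cep295, had a median log2 change of 0.37, and the bins of Tfap2b and Megf11 had medians of -0.06 and -0.25. Within their bin of 987 genes Klhl15 had 3 genes below it and Cep295 6, Megf11 had 4 of 985 and Tfap2b had 0 of 986. As the 4 genes were chosen for low KO values, such ranks were likely in any bin, and nothing is read from them. With the trend on GC removed the log2 changes were -2.44 for Klhl15, -1.998 for Cep295, -2.71 for Tfap2b and -2.16 for Megf11. All 4 genes are long, at the 71.3rd (Tfap2b) to 98.2nd (Cep295) percentile of exonic length, and 19.1% (Klhl15) to 45.5% (Cep295) of the exon bases are coding, against a median of 35.4%.

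The genes nearest in pattern were found among protein-coding genes with at least 20 reads by the distance between log2(RPKM + 1) values, each centred on its mean over the 4 libraries. The pair of Klhl15 and Cep295 lay 0.54 apart and the pair of Tfap2b and Megf11 0.89, while the distances across these pairs were 1.08 to 1.51. Nearest to Cep295 was Cacng1, a subunit of the muscle calcium channel, at 0.10, with 11, 11, 5 and 4 reads in WT1, WT2, KO1 and KO2, followed by Nuak2 and Slc25a37. Nearest to Klhl15 were Ppp1r16a (0.37), Cacng1 (0.47) and Foxo4 (0.47). Nearest to Megf11 were Tecrl (0.53), Skint3 (0.55) and Cdc34 (0.76), and nearest to Tfap2b were Hba-a2 (0.62), Skint3 (0.73) and Smad6 (0.77). Hba-a2 codes for an alpha-globin chain and has a near-identical copy, so its 9, 14, 3 and 2 reads are uncertain. Of these neighbours, Smad6 had 44 to 530 reads in a library, and every other one had at most 26, so that likeness over 4 libraries says little.

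To see whether relatives of the 4 genes had lower signal too, lists of related genes without the 4 themselves were described. Over all these lists 63 genes were tested in limma and 57 in limma-voom, and 0 passed the adjusted threshold of either. At an unadjusted p under 0.05, limma found 0 lower and 2 higher, beside 4.46% lower and 2.86% higher among all tested genes, and limma-voom found 1 lower and 1 higher. The balance over all tested genes depends on the scaling, since 169 genes were lower and 1689 higher at this threshold with the libraries scaled to the same number of reads.

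For Klhl15, the list held CUL3, its partner RBX1, other Kelch adaptors and the known KLHL15 substrates Ppp2r5b and Rbbp8. Of 30 tested genes, 14 had a log2 change below 0 and 16 above, with a median of 0.04 beside 0.000259 over all tested genes. Enc1, a Kelch adaptor of the nervous system, had 9.81 and 8.96 RPKM in WT and 31.4 and 20.9 in KO, with a log2 change of 1.36 ± 0.41 (SE; unadjusted p = 0.0161, limma). Klhl25 was listed at 0 and 2.20 RPKM in WT and had 4.86 and 4.50 in KO (unadjusted p = 0.0436, limma). Both were higher in KO at the unadjusted threshold alone. Cul3 itself had 12.9 and 10.5 RPKM in WT and 22.2 and 17.3 in KO, and its log2 change of 0.70 ± 0.39 (SE) did not pass. The lowest value in the list was that of Klhl36, at -0.85, with WT levels of 2.13 and 5.45 RPKM and KO levels of 1.41 and 1.59.

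For Tfap2b, the other AP-2 factors were nearly unread. Tfap2c, Tfap2d and Tfap2e were listed at 0 in all 4 libraries, and Tfap2a had 1, 1, 0 and 3 reads. Of the cofactors, the repressors Kctd1 and Kctd15 had 12 and 9 reads in all, and Cited4 was listed at 0. Cited2, a coactivator, was the only gene of the list that was tested, with 74.9 and 52.7 RPKM in WT and 53.9 and 75.1 in KO, a log2 change of 0.02 ± 0.46 (SE). The WT level of Tfap2b was therefore not shared by its family. Markers of Schwann and neural crest cells, in which Tfap2b is known, were all tested. Their sum was 77.2 and 28.2 RPKM in WT and 56.8 and 34.3 in KO, of which Ngfr held 28.9, 4.31, 10.9 and 6.83 RPKM in WT1, WT2, KO1 and KO2. The adjusted threshold was passed by 0 of the 8 markers (limma; 0 also at an unadjusted p under 0.05, and 0 of the 6 that limma-voom tested).

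For Cep295, the list held the kinase Plk4 and other genes of centriole assembly and the centrosome. Of 25 tested genes, 9 had a log2 change below 0 and 16 above, with a median of 0.18, and 0 had an unadjusted p under 0.05 in limma, nor did any of the 24 that limma-voom tested. The median was 0.64 with a filter at a mean of 5 RPKM, which leaves only Cetn2, Cetn3, Ppp1r35 and Tubg1. It was 0.62 with the libraries scaled to the same number of reads, 0.42 without KO2 and 0.07 without KO1. The lowest was Ninl, a microtubule anchor, at -1.22 ± 0.66 (SE), with 3.34 and 1.43 RPKM in WT and 0.371 and 0.416 in KO. Cenpj and Cep120, which act in centriole elongation, had log2 changes of -0.12 and -0.12, and Cep152 and Cep192, which recruit Plk4, of 0.62 and 0.37. None of these was called by limma.

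For Megf11, the list held other proteins with EGF-like repeats and the adaptor Gulp1. Of 7 tested genes 5 had a log2 change below 0, with a median of -0.54, but the median was -0.07 with the libraries scaled to the same number of reads and -0.18 with the trend on GC removed. Megf10, the closest relative of Megf11 and a gene of muscle stem cells, had 8.81 and 3.03 RPKM in WT and 4.00 and 2.73 in KO, a log2 change of -0.54 ± 0.53 (SE), and its groups overlapped.

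**Figure D5:**
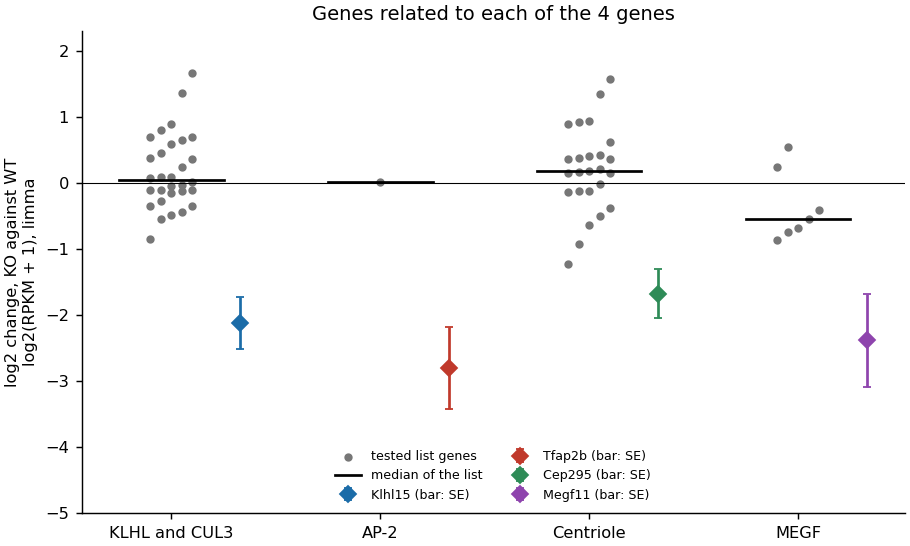
Log2 change in KO against WT on the log2(RPKM + 1) scale for the tested genes of the list related to each of the 4 genes (grey, with the median as a line) and for the 4 genes themselves (diamonds with SE). The list medians are 0.04, 0.02, 0.18 and -0.54, the AP-2 list holding 1 tested gene. Each of the 4 genes lies below every tested gene of its list, as their choice for low KO values made likely.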

How the data were processed

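Ribosome profiling libraries of WT and eIF5A-KO myoblasts (2 each) were analysed. The authors removed low-quality, rRNA and tRNA reads, mapped with TopHat2 (mm10, per the labels), counted with HTSeq and deposited RPKM values per gene and library. RPKM times gene length gave whole multiples of 1 step per library (tolerance 0.001) for 100% of values above 0, from which reads were recovered.

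Groups were compared by limma (3.58.1, R 4.3.3; trend) on log2(RPKM + 1), leaving out genes whose mean was under 1 RPKM, and by limma-voom on recovered reads for genes with at least 20 reads, with Benjamini-Hochberg adjustment and a threshold of 0.05; both were tested on simulated data. Exons and transcripts came from GENCODE M21 (GRCm38), in which 99.68% of identifiers were found, and microRNA sequences from RefSeq (GRCm38.p6). Related lists, marker lists and the 4 genes were chosen with earlier results of these data known. Named genes were the 4 genes, genes overlapping them, the 3 coding genes nearest in pattern to each, the 3 just outside the limma-voom threshold, Eif5a, and list genes. Alternatives were other pseudocounts, filters, scalings, a replicate block, omission of each library and removal of the trend on coding GC. Summed levels of the other marker lists, in WT1, WT2, KO1 and KO2, were 458, 267, 763 and 338 RPKM for fibroblasts, 106, 99.8, 139 and 112 for endothelium and 34.3, 47.7, 52.7 and 43.9 for immune cells.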

Additional observations from a re-analysis of the deposited data

How the results depend on the processing

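The log2 changes of the 4 genes lay between -3.69 and -1.17 over the alternatives, below 0 as their choice by these values made likely. The replicate block and the filters leave the estimate as it is, so they say nothing of stability. Shifts over 1 SD between replicates were those of Cep295 and Klhl15 with a pseudocount of 0.1 (-1.99 and -2.47), the same number of reads over all genes (-1.17 and -1.61), limma-voom (-2.02 and -2.50) and the GC trend removed (-1.998 and -2.44). This last alternative, and limma-voom without single libraries, were chosen after seeing the data. As a description of genes already selected, limma-voom called all 4 without either WT library and 1 (Tfap2b) without either KO library, where the lone library left is assumed to vary like the other group. Without single libraries the change ran from -3.69 to -1.93 for Tfap2b, -3.29 to -1.48 for Megf11, -2.40 to -1.83 for Klhl15 and -1.87 to -1.49 for Cep295, and the smallest was found without WT library 2 for each. Counts of called genes, 11 lower and 1 higher with limma, fell to 0 and 0 with a pseudocount of 0.1, with a filter at a mean of 5 RPKM, with no filter beyond a value above 0 and with the same number of reads over all genes. They were 12 and 1 with the same number of reads over protein-coding genes, and limma-voom gave 39 and 0. With the GC trend removed the counts were 0 and 0 too, but that fit held 9866 protein-coding genes, and limma called 0 protein-coding genes before the removal. The causes were not tested. The replicate block also gave 0 lower and 0 higher, with 509 and 318 genes at an unadjusted p under 0.05 (limma). Over the tested genes, the deviations of WT1 and KO1 from their group means correlated at 0.0575. That value alone cannot show whether libraries of the same number share a preparation. With 2 libraries a group, an exact permutation test of 1 gene cannot go below p = 0.33, and 4 to 40 reads per gene in a KO library limit each KO value. The median of the KLHL and CUL3 list was -0.17 without WT library 2 and 0.45 with the same number of reads over all genes. With a filter at a mean of 5 RPKM, which leaves fewer of its genes, it was 0.30. That of the AP-2 list was -0.38 and -0.80 without KO libraries 1 and 2, where Kctd15 passed the filter on low values beside Cited2.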
